A study of Mus musculus with 6 samples.

Results

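RNA levels of 8 genes of Notch signalling were read in C2C12 cells, a mouse myoblast line. The 8 genes were the receptors Notch1, Notch2 and Notch3, the ligands Jag1 and Dll1, and the target genes Hes1, Hey1 and Heyl. They were chosen by name, with earlier results of these data known. Probe sets annotated with the symbol of 1 gene alone were averaged for each. All 8 were measured, out of 22180 genes with a symbol, and all 8 were among the 13652 genes whose highest array reached the median of all deposited values, 5.06 on the log2 scale (the floor). Each of 6 cultures was measured on 1 Affymetrix array. In growth medium with 10% fetal bovine serum the cultures were untreated, given TNF-α at 50 ng/ml for 24 h, or given 10 nM of BTZ over 24 h. Cultures moved to 2% differentiation medium were harvested on day 5 and were untreated or received the same dose of TNF-α or BTZ on day 4. The cytokine TNF-α drives inflammation. BTZ is not spelled out in the labels and usually stands for the proteasome inhibitor bortezomib. All 6 are cultures of 1 cell line, and with 1 array in each group a difference of 2 arrays has no error and no p-value.

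Notch receptors sit in the cell membrane and are switched on by ligands on a neighbouring cell. Cleavage by ADAM proteases and γ-secretase then frees the intracellular domain, which joins RBPJ and Mastermind proteins in the nucleus and turns on repressors of the Hes and Hey families. In skeletal muscle the pathway is known for keeping precursor cells undifferentiated and for opposing MyoD. Dll1 and Jag1 are ligands that activate the receptors from adjacent cells.

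Markers of muscle cells were read on every array. The myotube marker list (Myog, Mymk, Myh3, Ckm, Acta1) had a log2 summed signal between 7.87 and 8.54 on the growth medium arrays. It was 13.7, 13.43 and 11.74 on the untreated, TNF-α and BTZ arrays of differentiation medium. Myogenin (Myog) differed by -3.97 between the BTZ and untreated arrays there. With BTZ in both media, the difference between media was 4.8 for Acta1, 3.42 for Myh3 and 2.33 for Mymk, but 0.85 for Myog and 0.04 for Ckm. The myoblast list (Myod1, Myf5, Des, Cdh15) had a log2 summed signal of 11.41 untreated in growth medium and 12.34 in differentiation medium, and its member Myf5 differed by -0.91. All 5 endothelial markers (Pecam1, Cdh5, Kdr, Tek, Emcn) stayed under the floor on every array, as did the macrophage markers Ptprc and Adgre1. In bulk RNA, fewer cells of a type and less RNA per cell cannot be told apart.

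Untreated cultures, 1 in each medium, were compared between media. The values are RNA levels and do not show how active the pathway was. In differentiation medium Notch3 and Dll1 were past 2-fold on the higher side, 2 of 8 genes, against 4.83% of all genes above the floor (8.75% were past 2-fold in either direction). None of the 8 was at least 2-fold lower, against 3.92% of all genes. The median difference of the 8 was 0.69, against 0.01 over all genes above the floor, and 7 of 8 differences were positive. In the same comparison the mitotic list had a median of -3.15, with 5 of 5 past 2-fold on the lower side, and the myogenic list one of 1.68, with 6 of 10 past 2-fold on the higher side, and their part in the Notch gene values was not tested.

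Notch1, a receptor of satellite cells and many other tissues, read 6.97, 6.49 and 6.61 on the untreated, TNF-α and BTZ arrays of growth medium and 7.75, 6.96 and 6.98 on those of differentiation medium. Its untreated culture in differentiation medium was the highest, and the arrays of the media overlapped. Notch2 read 10.06, 9.76 and 9.98 in growth medium and 10.45, 10.32 and 10.18 in differentiation medium. All 3 differentiation arrays of Notch2 lay above all 3 growth arrays, but the whole range was 0.69 log2 units. Notch3, a receptor best known from smooth muscle and pericytes, read 6.53, 6.32 and 6.29 in growth medium and 7.80, 7.01 and 6.63 in differentiation medium. Its media did not overlap either, and the untreated differentiation array was highest by a clear margin. At the closest the media were at 10.18 against 10.06 for Notch2 and 6.63 against 6.53 for Notch3. The ligand Dll1 had no overlap either (5.29 against 5.26). The share of all genes without overlap was not counted, so the separation describes these values and is not a result about these genes.

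Between the untreated arrays the receptor differences were 0.79 for Notch1, 0.39 for Notch2 and 1.27 for Notch3. With TNF-α present in both media they were 0.47, 0.56 and 0.69. With BTZ present they were 0.37, 0.20 and 0.34. The difference between media was smallest under BTZ for each receptor, though none of these 2-array values has an error of its own. Over all genes above the floor, 3.67% were past 2-fold between media with BTZ, against 8.75% untreated and 10.7% with TNF-α.

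**Figure D1:**
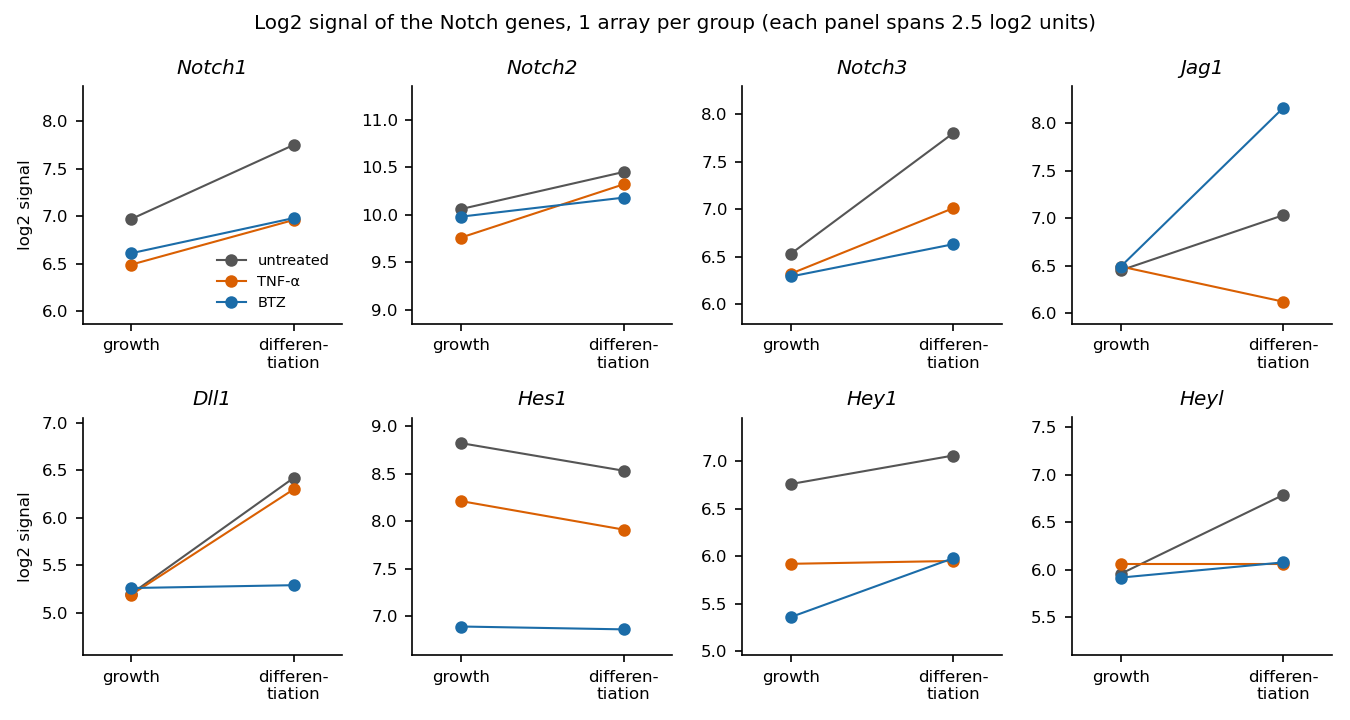
Log2 signal (vertical axis) of the 8 genes in growth and differentiation medium (horizontal axis), 1 point for each array, with lines joining cultures of the same treatment. Each panel spans the same number of log2 units, and levels are not comparable between panels. Dll1 and Notch3 separate in differentiation medium, Jag1 is highest with BTZ there, and Hes1 is lowest with BTZ in both media.

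The ligands stood apart from each other. Dll1 read 5.2, 5.19 and 5.26 on the untreated, TNF-α and BTZ arrays of growth medium, close to the floor, and 6.42, 6.30 and 5.29 in differentiation medium. Only the untreated and TNF-α cultures in differentiation medium were high, and the BTZ culture there was at the growth medium level. The Dll1 difference between media was 1.22 untreated, 1.11 with TNF-α and 0.03 with BTZ. Under TNF-α Dll1 was the only one of the 8 genes past 2-fold between media, on the higher side, where 5.85% of all genes were higher, 4.85% lower and 10.7% past 2-fold either way.

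Dll1 was measured by 2 probe sets that disagreed, and its call rested on 1 of them. The first read 5.39, 5.28 and 5.27 in growth medium and 7.58, 7.15 and 5.65 in differentiation medium, a difference of 2.19 between the untreated arrays. The second read 5.01, 5.11 and 5.25, and then 5.26, 5.44 and 4.93, a difference of 0.25. The second probe set stayed within 0.38 log2 units of the floor on every array, so most of the Dll1 pattern came from the first.

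**Figure D2:**
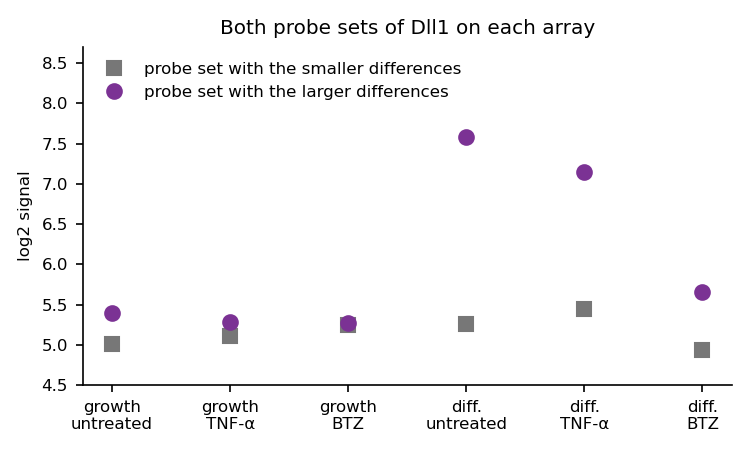
Log2 signal (vertical axis) of both Dll1 probe sets on the 6 arrays (horizontal axis), 1 point for each probe set and array. The probe set with the larger differences reads 7.58 and 7.15 on the untreated and TNF-α arrays of differentiation medium and between 5.27 and 5.65 on the other 4, while the other probe set stays between 4.93 and 5.44.

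Jag1 read 6.45, 6.49 and 6.49 in growth medium, where the 3 arrays lay within 0.04 log2 units, and 7.03, 6.12 and 8.16 on the untreated, TNF-α and BTZ arrays of differentiation medium. The BTZ culture in differentiation medium was the highest and the TNF-α culture there the lowest of the 6. The Jag1 difference between media was 0.58 untreated, -0.37 with TNF-α and 1.67 with BTZ. With BTZ, Jag1 was the only one of the 8 genes past 2-fold between media, on the higher side, where 1.54% of all genes were higher, 2.13% lower and 3.67% past 2-fold either way.

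The 250 bases before the RefSeq start (GRCm38.p6) of Notch3, Jag1 and Dll1 are shown because these genes differed at least 2-fold in differentiation medium. Windows were at hand for 5 of the 8 genes, 6 windows in all since Dll1 has 2 starts, and Hes1, Hey1 and Heyl had none. Capitals mark CAGCTG, an E-box that MyoD and myogenin bind, searched on both strands.
Notch3, chr17:32166891-32167140, strand -: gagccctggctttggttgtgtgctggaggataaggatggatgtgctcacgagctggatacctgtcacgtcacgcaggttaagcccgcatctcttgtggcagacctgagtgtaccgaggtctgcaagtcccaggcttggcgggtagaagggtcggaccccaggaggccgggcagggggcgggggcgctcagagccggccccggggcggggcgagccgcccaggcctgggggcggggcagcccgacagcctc
Jag1, chr2:137116521-137116770, strand -: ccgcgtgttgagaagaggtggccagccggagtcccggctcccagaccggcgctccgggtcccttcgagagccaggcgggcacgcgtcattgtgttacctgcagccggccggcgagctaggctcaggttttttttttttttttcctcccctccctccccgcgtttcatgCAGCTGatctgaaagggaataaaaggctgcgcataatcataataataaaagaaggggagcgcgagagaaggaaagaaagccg
Dll1 first window, chr17:15375824-15376073, strand -: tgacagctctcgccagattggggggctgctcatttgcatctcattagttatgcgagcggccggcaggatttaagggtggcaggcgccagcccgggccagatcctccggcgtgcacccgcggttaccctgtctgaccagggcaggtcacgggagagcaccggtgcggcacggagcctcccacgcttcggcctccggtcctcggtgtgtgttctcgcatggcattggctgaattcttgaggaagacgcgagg
Dll1 second window, chr17:15376933-15377182, strand -: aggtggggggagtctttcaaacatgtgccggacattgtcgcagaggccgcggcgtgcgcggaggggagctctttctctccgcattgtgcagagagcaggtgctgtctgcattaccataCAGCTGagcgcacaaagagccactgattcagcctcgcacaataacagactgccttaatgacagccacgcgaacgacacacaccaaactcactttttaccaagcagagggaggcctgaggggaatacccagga
CAGCTG occurred in Jag1, beginning 82 bases before the start, and in the second Dll1 window, beginning 132 bases before it, and in none of the other windows of the 8 genes. It occurred in 13.0% of all 32851 windows of this length. The RBPJ core TGGGAA, found in 21.6% of all windows, and the heat shock element GAANNTTC, found in 6.69%, had no match in any of the 6 windows, and neither motif overlaps another here. A match describes letters only, and the windows of Notch1 and Notch2 held none of the 3 motifs.

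Among the target genes, all repressors of the basic helix-loop-helix type, none was at least 2-fold apart between the untreated cultures. Hes1, which also answers to signals other than Notch, differed by -0.29 between media. Hey1 differed by 0.30 and Heyl by 0.83. Every receptor and ligand of the 5 had a larger difference between the untreated arrays than Hes1 or Hey1.

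The TNF-α culture was set against the untreated one, first in growth medium. None of the 8 genes was past 2-fold, and 2.00% of all genes above the floor were (0.982% higher, 1.02% lower). Of the 8 differences 6 were negative, or 5 after median scaling or quantile normalization of the arrays, when Dll1 (-0.01) changed sign. The largest was Hey1 at -0.84, followed by Hes1 at -0.61 and Notch1 at -0.48. Notch2 differed by -0.30 and Notch3 by -0.21, and Jag1 and Heyl by 0.04 and 0.10. The median of the 8 was -0.26, against 0.03 over all genes.

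TNF-α in differentiation medium went with lower values for all 8 genes, also under both other scalings. The median difference was -0.76, against 0.01 over all genes. Hey1 was the 1 gene past 2-fold, at -1.11, against 0.879% of genes at least 2-fold lower, 2.01% higher and 2.89% past 2-fold either way. Jag1 differed by -0.91, Notch1 by -0.80, Notch3 by -0.79, Heyl by -0.73 and Hes1 by -0.62. Notch2 and Dll1 differed least, by -0.13 and -0.12. The untreated differentiation array, which was the highest of the 6 for Notch1, Notch2, Notch3, Dll1, Hey1 and Heyl, enters this comparison, the BTZ comparison in that medium and the comparison of media, so these are not independent of one another. The macrophage marker Cd14 differed with TNF-α by 1.02 in growth and 0.88 in differentiation medium, and the log2 summed signal of its list went from 7.87 to 8.34 and from 7.35 to 7.75. Others of that list moved less: Cd68 differed by 0.24 and 0.07 and Csf1r by -0.36 and -0.12, and Ptprc and Adgre1 were under the floor. In differentiation medium the 5 mitotic genes measured had a median difference of 1.06 and the 10 myogenic genes one of -0.62, and their part in the Notch gene values was not tested.

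For BTZ, growth medium again comes first. Hes1 and Hey1 were at least 2-fold lower, 2 of 8 genes, against 6.16% of all genes lower, 4.99% higher and 11.1% past 2-fold either way. Hes1 read 8.82 untreated, 8.21 with TNF-α and 6.89 with BTZ, a BTZ difference of -1.93. Hey1 read 6.76, 5.92 and 5.36, a BTZ difference of -1.40. BTZ gave the lowest growth medium value for both. The receptors and ligands had small differences: Notch1 by -0.36, Notch3 by -0.24, Notch2 by -0.08, Jag1 by 0.04 and Dll1 by 0.06, and Heyl differed by -0.04. The Jag1 sign changed under both other scalings. The macrophage marker list, with Ptprc and Adgre1 under the floor, moved with BTZ through Cd14 (2.01 in growth and 1.80 in differentiation medium) and Cd68 (1.17 and 0.61), its log2 summed signal being 7.87 untreated and 9.22 with BTZ in growth medium and 7.35 and 8.43 in differentiation medium. All 5 mitotic genes (median -2.25) and 3 of 10 myogenic genes were at least 2-fold lower with BTZ in growth medium. The part of these lists in the Notch gene values was not tested.

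In differentiation medium BTZ went with differences in more of the 8 genes. Notch3, Dll1, Hes1 and Hey1 were at least 2-fold lower, against 8.91% of all genes, and Jag1 was at least 2-fold higher, against 6.05% (15.0% of genes were past 2-fold either way). Hes1 read 8.53 untreated, 7.91 with TNF-α and 6.86 with BTZ, a BTZ difference of -1.66. Hey1 read 7.06, 5.95 and 5.98, so that its TNF-α and BTZ cultures were close to each other and both below the untreated one, with a BTZ difference of -1.08. Heyl read 6.79, 6.06 and 6.08 there, and between 5.92 and 6.06 on the 3 growth medium arrays. Only the untreated differentiation culture stood out for Heyl, and its BTZ difference was -0.71.

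The remaining BTZ differences in differentiation medium were -1.17 for Notch3, -1.13 for Dll1 (-1.92 and -0.33 for its probe sets), -0.77 for Notch1 and -0.27 for Notch2. Jag1 differed by 1.13, the 1 positive value among the 8. The median of the 8 was -0.93, against 0.00 over all genes. All 5 myotube markers were at least 2-fold lower with BTZ in this medium. The myogenic list, which includes these 5, had 8 of 10 genes at least 2-fold lower (median -1.68), and 4 of 5 mitotic genes were at least 2-fold lower. Their part in the Notch gene values was not tested.

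**Figure D3:**
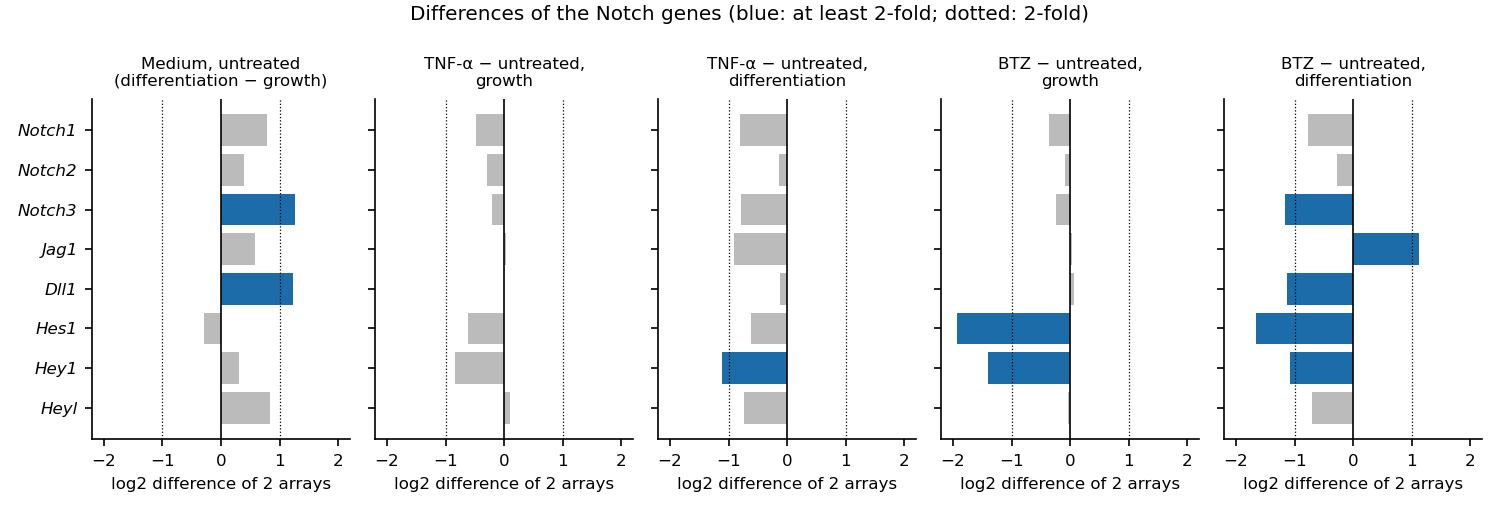
Log2 differences of 2 arrays (horizontal axis) for the 8 genes (vertical axis) in 5 comparisons, 1 panel each, with bars past 2-fold in blue and no error bars because each group has 1 array. Hes1 and Hey1 pass 2-fold with BTZ in both media, whereas Notch3, Dll1 and Jag1 do so with BTZ in differentiation medium.

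The effects of BTZ and TNF-α in the media were also subtracted from each other, 4 arrays for each value and no test. The BTZ effect of Dll1 was lower in differentiation than in growth medium by a value of -1.19, that of Notch3 by -0.93 and that of Heyl by -0.67, whereas that of Jag1 was higher by 1.09. For Hes1 and Hey1 these values were 0.26 and 0.32. For TNF-α the values were -0.95 for Jag1, -0.83 for Heyl and -0.57 for Notch3, and -0.01 for Hes1.

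A model of medium and treatment fitted to all 6 arrays with limma, which assumes the same treatment effect in both media, gave each gene an error from 2 residual degrees of freedom moderated over all genes. Hes1 fell with BTZ by 1.80 ± 0.18 (log2, SE; adjusted p = 0.0105) and Hey1 fell by 1.24 ± 0.20 (adjusted p = 0.0206). Both were lower with BTZ in each medium. These are 2 of 8 genes, and 6.85% of all genes fell with BTZ, 7.31% rose and 14.2% passed in either direction. At an unadjusted limma p under 0.05 there were 4 of 8, against 31.8% of all genes. The other 6 genes did not pass for BTZ, with adjusted p from 0.0988 for Notch1 (-0.57 ± 0.19) to 0.511 for Notch2 (-0.17 ± 0.16). Jag1 had the widest error, 0.59 ± 0.45 (adjusted p = 0.44). Its differences in growth and differentiation medium were 0.04 and 1.13 for BTZ and 0.04 and -0.91 for TNF-α. The BTZ estimate was -0.20 without the BTZ array of differentiation medium and 1.37 without that of growth medium. In each of these fits BTZ is a single array.

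No gene of the 8 passed for the medium effect, for which 4.03% of all genes passed (1.56% higher, 2.47% lower). At an unadjusted limma p under 0.05 there were 4, against 22.6% of all genes: Notch3 with 0.76 ± 0.21 (adjusted p = 0.106), Notch1 with 0.54 ± 0.15 (adjusted p = 0.113), Dll1 with 0.79 ± 0.26 (adjusted p = 0.159) and Notch2 with 0.38 ± 0.13 (adjusted p = 0.165). The same 4 genes passed when either BTZ array was left out, with adjusted p as low as 0.00248 for Dll1, and the number of all genes passing then was 3258 or 3260 in place of 550. In those fits BTZ is a single array, so the error comes from the untreated and TNF-α arrays alone. Hes1 had a medium effect of -0.20 ± 0.14 (adjusted p = 0.459).

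No gene of the 8 passed for TNF-α either, where 0.0952% of all genes passed (0.0806% higher, 0.0146% lower), and 3 had an unadjusted limma p under 0.05, against 6.56% of all genes. These were Hey1 with -0.97 ± 0.20 (adjusted p = 0.396), Hes1 with -0.62 ± 0.18 (adjusted p = 0.554) and Notch1 with -0.64 ± 0.19 (adjusted p = 0.57). When either BTZ array was left out the Hey1 estimate stayed at -0.97, as the model requires for every gene. The BTZ array that is left is fitted exactly, so the TNF-α estimate cannot change and the fit is no check of it. The error then came from the untreated and TNF-α arrays alone. The BTZ calls of Hes1 and Hey1 held without either TNF-α array. They also passed without either BTZ array, but a single BTZ array is then assumed to vary like the other treatments. Without either untreated array the calls were lost while the estimates stayed close to those with all arrays. Hes1 was then -1.73 ± 0.31 or -1.86 ± 0.31 (highest adjusted p = 0.133) and Hey1 -1.23 ± 0.32 or -1.25 ± 0.32 (highest adjusted p = 0.187). No gene at all passed for BTZ in those fits, and 2209 and 2362 genes had an unadjusted p under 0.05.

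**Figure D4:**
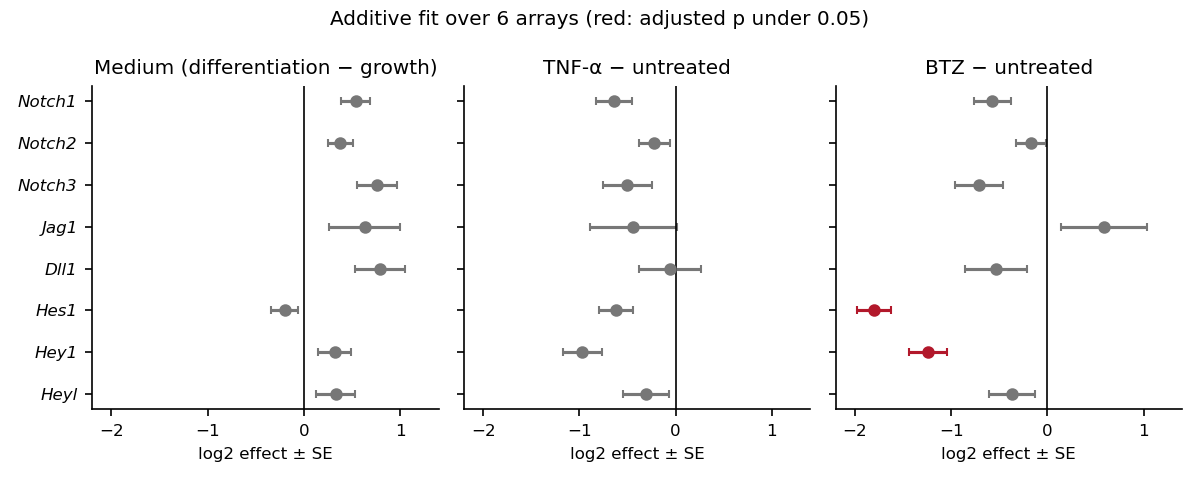
Log2 effects ± SE (horizontal axis) of medium, TNF-α and BTZ for the 8 genes (vertical axis) from the additive limma fit over 6 arrays, with effects of adjusted p under 0.05 in red. Hes1 (-1.80) and Hey1 (-1.24) pass for BTZ, and none passes for medium or TNF-α.

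A wider list of 74 pathway genes was read beside the 8, of which 70 were measured and 66 were above the floor. For BTZ 10 of the 66 passed the limma fit, 4 higher and 6 lower, a share of 15.2% against 14.2% of all genes. For medium 2 passed, a share of 3.03% against 4.03% of all genes, and both are named here after their values were seen: Bhlhe40, a helix-loop-helix repressor, rose by 1.09 ± 0.12 (adjusted p = 0.0112), and the deacetylase Hdac1 fell by 0.82 ± 0.14 (adjusted p = 0.0419). For TNF-α none passed, and 4 had an unadjusted limma p under 0.05, a share of 6.06% against 6.56% of all genes. These shares are near the background and no more than a description of the list.

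Among other receptors and ligands, Jag2, a further ligand, fell with BTZ by 1.14 ± 0.23 (adjusted p = 0.0317). It read 6.97, 7.60 and 5.86 in growth medium and 7.09, 7.0 and 5.92 in differentiation medium, so both BTZ cultures lay below the other 4. Jag1 and Jag2 thus differed in opposite directions with BTZ in differentiation medium, 1.13 against -1.17. Notch4, known from endothelium, stayed between 5.64 and 6.16, and Dll3, Dll4 and Dner were under the floor on all arrays.

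Of 10 measured genes of receptor cleavage and maturation, Chac1, an enzyme that blocks Notch maturation and is also a target of the integrated stress response, rose with BTZ by 1.41 ± 0.20 (adjusted p = 0.0164). Adam17, a protease of the receptor's outer cut, was past 2-fold with TNF-α in differentiation medium (1.11, and 0.45 in growth medium), and its TNF-α effect did not pass (adjusted p = 0.563). Among 6 sugar transferases Lfng, the Lunatic fringe enzyme that modifies the receptor's outer part, fell with BTZ by 1.21 ± 0.26 (adjusted p = 0.0355). Lfng read 8.15, 7.54 and 6.58 in growth medium and 7.43, 6.66 and 6.59 in differentiation medium, so the untreated culture was highest in each medium.

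Among 15 measured ubiquitin ligases and trafficking genes, 3 passed for BTZ, a share of 20.0% against 14.2% of all genes. The kinase Aak1, which acts in endocytosis, rose by 0.97 ± 0.20 (adjusted p = 0.0337) and Dtx2, a Deltex ligase, by 1.0 ± 0.19 (adjusted p = 0.0285). The ligase Nedd4 fell by 0.89 ± 0.11 (adjusted p = 0.0135). Dtx2, Nedd4 and Ctbp1 are named here after their values were seen. Neurl1a, a Neuralized ligase that acts on ligands, read 6.91 untreated in growth medium and 8.31 in differentiation medium, a difference of 1.41, and its BTZ difference there was -1.58. The Deltex gene Dtx4 had values of the same kind, 1.94 between media and -1.64 with BTZ in differentiation medium. Neither passed the fit for medium (adjusted p = 0.0606 and 0.122).

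In the nuclear complex Rbpj, the DNA-binding partner of the receptor's intracellular domain, read 7.35, 8.22 and 7.61 in growth medium and 7.36, 8.08 and 8.06 in differentiation medium. Its TNF-α differences were 0.87 and 0.72, and the effect of 0.80 ± 0.21 did not pass (adjusted p = 0.509). The coactivator Maml3 fell with BTZ by 1.07 ± 0.17 (adjusted p = 0.0193), the corepressor Ctbp1 fell by 0.70 ± 0.15 (adjusted p = 0.0352) and the demethylase Kdm5a, which is recruited by RBPJ, rose by 1.02 ± 0.18 (adjusted p = 0.0244). Of the Groucho-type corepressors, Tle2 had BTZ differences of -1.12 and -1.10 and Tle4 of 0.34 and 1.07, without passing (adjusted p = 0.0563 and 0.108).

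Among 12 other targets and Hes relatives, Hes6, which counters Hes1 and favours differentiation, read 6.61, 6.15 and 5.97 in growth medium and 8.26, 7.35 and 6.53 in differentiation medium. It was 1.65 apart between the untreated cultures, and it fell with BTZ by 1.18 ± 0.28 (adjusted p = 0.046). Hes5 stayed between 5.24 and 5.56, Hey2 between 4.60 and 5.42 and Nrarp between 4.25 and 5.11, near the floor or under it. The cyclin Ccnd1 had opposite BTZ differences, -2.27 in growth medium and 1.10 in differentiation medium. Bhlhe41 differed by -1.12 and Sox9 by 1.11 with BTZ in differentiation medium, and neither passed (adjusted p = 0.0924 and 0.126).

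**Figure D5:**
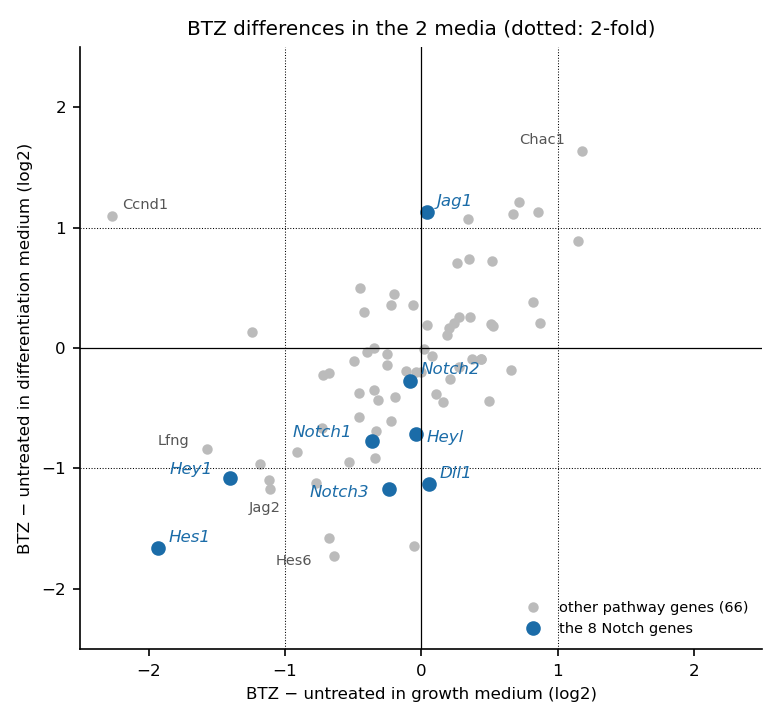
BTZ minus untreated in growth medium (horizontal axis) and in differentiation medium (vertical axis), both log2, for the 8 genes in blue and 66 other pathway genes in grey, 1 point for each gene. Hes1 (-1.93 and -1.66) and Hey1 (-1.40 and -1.08) are low on both axes, and Jag1 (0.04 and 1.13) is high on the vertical axis alone.

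Genes whose 6-array pattern was most like each member were named from 12303 genes above the floor, by the root mean square difference of profiles centred on their own mean. The nearest to Hes1 were Myl9, a myosin light chain of smooth muscle and non-muscle cells, at 0.13 log2 units and Lrch2 at 0.14. The nearest to Hey1 were Arhgef10l at 0.13 and Cd248, a surface protein of mesenchymal cells, at 0.14. Notch3 lay nearest to the chloride transporter Clcn5 (0.094) and the corepressor Cbfa2t3 (0.11), Notch1 to the phosphodiesterase Pde5a (0.087) and Nfatc4 (0.11), and Dll1 to Mid1 (0.070) and Tmem86a (0.080). The nearest to Jag1 were Inka2 at 0.20 and Lrrc2 at 0.28. These distances were larger, and Jag1 also had the widest range of the 8 genes, 2.04 log2 units. These likenesses rest on 6 arrays and are descriptions.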

How the data were processed

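RNA was measured in 6 C2C12 cultures, 1 per group. Per the labels' protocols, total RNA was amplified and biotin-labelled for Affymetrix whole-transcript arrays. The deposited values, 1 per probe set and array, were read as log2 signals, since they lie between 1.66 and 14.1. How the authors summarized and normalized the probes is not given in the sources used here.

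Of 41345 probe sets, 23521 had 1 gene symbol, 1814 had several and 16010 had none. Probe sets with 1 symbol were averaged by gene. Array medians were between 5.01 and 5.11, and no further scaling was applied. The number of arrays limits the precision. Differences of 2 arrays were called at 2-fold, without a test. The additive fit ran in R 4.3.3 with limma 3.58.1 (eBayes with an intensity trend), adjusted by Benjamini-Hochberg over 13652 genes, with a threshold of 0.05. Its error comes from how treatment effects differ between media, not from replicates.

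The 8 genes and all lists were chosen with earlier results of these data known. The 8 were named in full. Pathway genes were named at 2-fold in any of 5 comparisons or on passing the fit, at most 4 per list, with Notch4, Rbpj, Hes5, Hes6, Hey2 and Nrarp always. The 2 nearest genes were named for members with a range of at least 1 log2 unit, leaving out predicted genes, small RNAs and sensory receptors. Alternatives were scaling, highest probe set, floor, fold threshold, prior and leaving out each array.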

Additional observations from a re-analysis of the deposited data

Results flagged for a closer look

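Without replicates, opposite effects of 1 contrast in 2 settings could be listed but not tested; those with at least 1 effect past 2-fold are given. Among the 8 genes, the difference between media for Jag1 was -0.37 with TNF-α and 1.67 with BTZ, 2.04 apart. The BTZ difference of Dll1 was 0.06 in growth medium and -1.13 in differentiation medium, -1.19 apart. Its probe set with the larger differences read -0.11 and -1.92, which have the same sign. The other Dll1 probe set read 0.24 and -0.33 and stayed within 0.38 log2 units of the floor. The opposite signs of the Dll1 mean rested on that probe set. Among other pathway genes, Neurl1b, a Neuralized ligase, had BTZ differences of -1.24 in growth and 0.13 in differentiation medium, 1.37 apart, and differences between media of -1.21 untreated and 0.15 with BTZ, also 1.37 apart. Ccnd1 had BTZ differences of -2.27 and 1.10, 3.38 apart. Its difference between media was -2.22 untreated and -1.30 with TNF-α, against 1.16 with BTZ, which is 3.38 and 2.46 apart. None of these differences was tested.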

How the results depend on the processing

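Of 280 differences of single genes among the 8 under 5 alternatives (scaling, probe set, floor), 277 moved by less than the fit's residual SD and 3 by more, all 3 of Dll1 with its highest probe set (2.19 untreated and 1.87 with TNF-α between media, and -1.92 for BTZ in differentiation medium). The floor settings cannot change these values, and the highest probe set can change Dll1 alone, so only the scalings could move the other genes. No value past 2-fold changed sign. With 1.5-fold in place of 2-fold, 4 of the 8 genes were past the threshold between media untreated, 2 with TNF-α, 2 with BTZ, 2 for TNF-α in growth medium and 6 in differentiation medium, and 2 and 7 for BTZ, and over all genes, in the order of media untreated, with TNF-α and with BTZ, TNF-α in growth and differentiation medium and BTZ in each, 2905, 3501, 1780, 1356, 1303, 3876 and 4565 were, in place of 1195, 1461, 501, 273, 394, 1522 and 2042. All 168 limma effects of the 8 genes kept their call under the 7 alternatives with all arrays. TNF-α then called 7 genes in all after quantile normalization in place of 13. Leaving out 1 array, the genes of the 8 called were 0 to 4 for medium, 0 to 1 for TNF-α and 0 to 6 for BTZ, the last without the BTZ array of growth medium, when BTZ is 1 array and its error comes from the other treatments. All genes called were 1 to 3260 for medium in place of 550, 0 to 224 for TNF-α in place of 13, and 0 to 3864 for BTZ in place of 1933; where limma called 0 for TNF-α, 368 and 597 genes had an unadjusted p under 0.05. These fits have fewer arrays. The cause of the other changes was not tested. Signal near the floor limits Dll1 and Hey1. No paired analysis was possible because each group has 1 replicate.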
